A study of Mus musculus with 40 samples.

Results

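The complement activation components were taken as 10 genes by symbol, namely the 3 chains of C1q (C1qa, C1qb and C1qc), the 2 proteases of the C1 complex (C1ra and C1s1), C4a, C4b, C2, C3 and Cfb. All 10 were listed among the 17646 genes of the male table and the 17223 genes of the female table, and all 10 had enough reads to be tested in both sexes. PolyA RNA of mouse hearts was sequenced in 40 libraries, of which 38 could be placed in a group. CM-Il11-Tg mice were heterozygous for the α-MHC-MerCreMer (MCM) transgene, which places a tamoxifen-activated Cre under a cardiomyocyte promoter, and for Rosa26-Il11, from which Cre releases expression of mouse Il11. Controls were described by the study as age-matched littermates that carried MCM alone, and they also received tamoxifen, so all groups shared MCM. Tamoxifen was given at 20 mg/kg on 5 consecutive days from 8 weeks of age, and CM-Il11-Tg hearts were taken 1, 3 and 6 weeks later, with 4 libraries in each group except male 6 weeks and male control (n = 3 each). A further group of CM-Il11-Tg hearts had no tamoxifen (uninduced, n = 4 per sex). Controls were labelled as baseline, so each week was set against the same control libraries, and the control and uninduced groups differed in both transgene and tamoxifen. The labels give no age at collection for control or uninduced hearts, and the same controls cannot match the age of every week. Age and time since tamoxifen may therefore differ in the comparisons of a week with either group, and both differ between the weeks. Effects of Rosa26-Il11 and of tamoxifen therefore cannot be told apart between uninduced and control hearts. Induced and uninduced hearts carried the same transgenes, and between them effects of tamoxifen and of the Il11 it induced cannot be told apart.

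Complement is a set of plasma proteins that mark surfaces for removal. In the classical pathway C1q binds its target and activates the proteases C1r and C1s, which cleave C4 and C2 to form a C3 convertase, while in the alternative pathway factor B pairs with cleaved C3 to form another convertase. Most circulating complement is made in the liver, C1q is made mainly by macrophages and other myeloid cells, and fibroblasts and other tissue cells can make several of the other components.

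The libraries held between 16663513 and 65333832 reads in males and between 19147947 and 30929192 in females, as recovered from the tables. Il11 ranged from 0 to 0.147 CPM (a read count that the authors scaled to library size) in male controls, from 16.5 to 23.3 in uninduced and from 351 to 712 in 1-week hearts, with 336 to 529 at 3 weeks and 407 to 819 at 6 weeks. In females the ranges were 0 to 0.166 in controls, 15.5 to 49.1 in uninduced and 328 to 614 over the 3 weeks sampled. Uninduced hearts thus held more Il11 than controls in every library. The summed level of 8 cardiomyocyte markers was 53072 to 63461 CPM in male and 37908 to 55378 CPM in female controls, and none of them was at 0 throughout a group. In 2 further male libraries the title and the description named different groups. The library titled control and described as 6 weeks held 511 CPM of Il11, and the library titled 6 weeks and described as control held 0.597 CPM. Both were left out. With both placed by their descriptions, all 10 genes were called higher in males at 6 weeks over control, as without them, and with both placed by their titles none was. Placement by titles puts the library with 511 CPM of Il11 among the controls. The share of all genes called under either placement is not given here, so the loss of calls cannot be read as particular to the 10 genes.

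The sequences of the genes decide how far the counts can tell them apart. C4a and C4b are copies of one C4 gene on chromosome 17 of GRCm39. C4b lies at 34947354 to 34962912 and C4a at 35028069 to 35042440, both on the minus strand and 65156 bases apart. Their coding sequences (GENCODE) were identical at 96.17% of 5202 aligned bases, and 29.7% of the 60-base stretches of the C4a transcript were also found in C4b. The longest identical run was 433 bases. A read from such a run cannot by itself be given to either gene, although the other read of its pair may cover a differing base. The shares of stretches given here and below leave the other read of a pair out. The stretch of exon 21 below, with 13 differing bases, separates C4a and C4b. The capitals mark the bases that differ, read in the direction of the transcript, at chr17:35035062-35035121 for C4a and chr17:34954404-34954463 for C4b.
C4a: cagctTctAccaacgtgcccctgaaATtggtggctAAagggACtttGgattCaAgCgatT
C4b: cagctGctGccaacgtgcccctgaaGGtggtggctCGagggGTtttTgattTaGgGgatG

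Cfb (17:35074852 to 35081559) and C2 (17:35081578 to 35117241) lie in the same region, both on the minus strand with 18 bases between them. The protein-coding gene Gm20547, annotated over both on the same strand, shared 64.9% of the 60-base stretches of the Cfb transcript and 56.7% of those of C2. C1ra (6:124489364 to 124500402, plus strand) shared 47.1% of its stretches with C1rb and the pseudogene Gm18840, and C1s1 (6:124507297 to 124559389, minus strand) shared 19.9% with C1s2 and overlaps C1rb on the opposite strand. The C1q chain genes form a cluster on chromosome 4, with C1qb at 136606009 to 136613511, C1qc at 136616466 to 136620376 and C1qa at 136623223 to 136626161, all on the minus strand. C3 lies apart from the C4 region at 17:57510964 to 57535155. None of the stretches of the C1q chains or of C3 was shared with another gene. How reads that match several genes, or genes on opposite strands, were counted is not given in the sources used here, so the values of C4a, C4b, C1ra, C1s1, C2 and Cfb are uncertain to that extent. C1qb, C1qc and C3 are overlapped by a long noncoding RNA gene on the opposite strand, and only C1qa is overlapped by no other gene.

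As all 10 genes rose together, their promoters were read from RefSeq (GRCm38.p6, 250 bases before to 50 after the start), where C1qb, C1qc, C1ra, C1s1 and C3 had an entry. C1qa, C2, C4a, C4b and Cfb had none. The sequences of C1ra, C1qc and C3 are shown as one gene of each of the C1 proteases, the C1q chains and the shared C3 step. The STAT motif TTCNNNGAA was searched on both strands, together with the interferon response element and the NF-kB motif, which are given by name. C1ra held 1 STAT match at bases 33 to 41 after the start, C1qc held 1 NF-kB match at bases -41 to -32, and C1qb, C1s1 and C3 held none of the 3. Of 32851 RefSeq promoters of this length, 8.3% held the STAT motif, 3.44% the interferon response element and 8.46% the NF-kB motif. The capitals mark the matches. The windows lie at chr6:124512371-124512670 on the plus strand for C1ra, and at chr4:136892865-136893164 for C1qc and chr17:57228087-57228386 for C3 on the minus strand.
C1ra: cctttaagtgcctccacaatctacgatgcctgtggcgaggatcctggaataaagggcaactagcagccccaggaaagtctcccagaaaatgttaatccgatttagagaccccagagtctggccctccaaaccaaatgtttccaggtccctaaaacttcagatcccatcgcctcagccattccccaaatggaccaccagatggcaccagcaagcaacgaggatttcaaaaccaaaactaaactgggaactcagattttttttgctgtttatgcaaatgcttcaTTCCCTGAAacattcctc
C1qc: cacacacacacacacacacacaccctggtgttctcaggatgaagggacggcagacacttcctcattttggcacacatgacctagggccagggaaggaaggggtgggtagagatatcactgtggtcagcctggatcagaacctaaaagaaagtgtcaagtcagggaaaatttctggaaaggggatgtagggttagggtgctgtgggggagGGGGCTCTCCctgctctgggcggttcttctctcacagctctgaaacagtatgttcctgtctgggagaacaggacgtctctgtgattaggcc
C3: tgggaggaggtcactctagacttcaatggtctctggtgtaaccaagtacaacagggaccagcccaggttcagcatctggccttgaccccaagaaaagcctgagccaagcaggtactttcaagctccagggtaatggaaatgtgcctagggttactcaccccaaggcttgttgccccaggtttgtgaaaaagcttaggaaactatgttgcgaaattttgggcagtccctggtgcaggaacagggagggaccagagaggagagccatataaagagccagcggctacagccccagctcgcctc

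All 10 genes were higher in CM-Il11-Tg hearts than in controls at each of the 3 weeks, in both sexes. Of all genes tested, limma called 18.9% higher (adjusted p under 0.05) after 1 week, 13.2% after 3 weeks and 16.2% after 6 weeks in male hearts. The corresponding female shares were 15.3%, 16.8% and 21.7%. The median log2 fold change over the 10 genes was 2.64, 2.94 and 2.99 in males and 2.79, 2.88 and 3.30 in females, where the median over all genes tested lay between -0.024 and 0.019. The lowest library of each induced group lay above the highest control library of that sex for every one of the 10 genes. How many of all genes tested separated in this way was not counted, and groups this small can separate by chance. On this log2(CPM + 0.5) scale C4b came first in both sexes, C4a and C3 next and the C1q chains lowest. The scale shrinks low genes, and as a ratio of mean CPM at 6 weeks over control Cfb stood at 46.2 in males, above C3 at 19.9, while in females Cfb stood at 42.9 and C3 at 47.02. Whether the sexes differed was not tested, because their tables were scaled separately. More cells of a type and more RNA per cell cannot be told apart in such bulk samples, and neither can fewer cells and less RNA per cell.

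**Figure D1:**
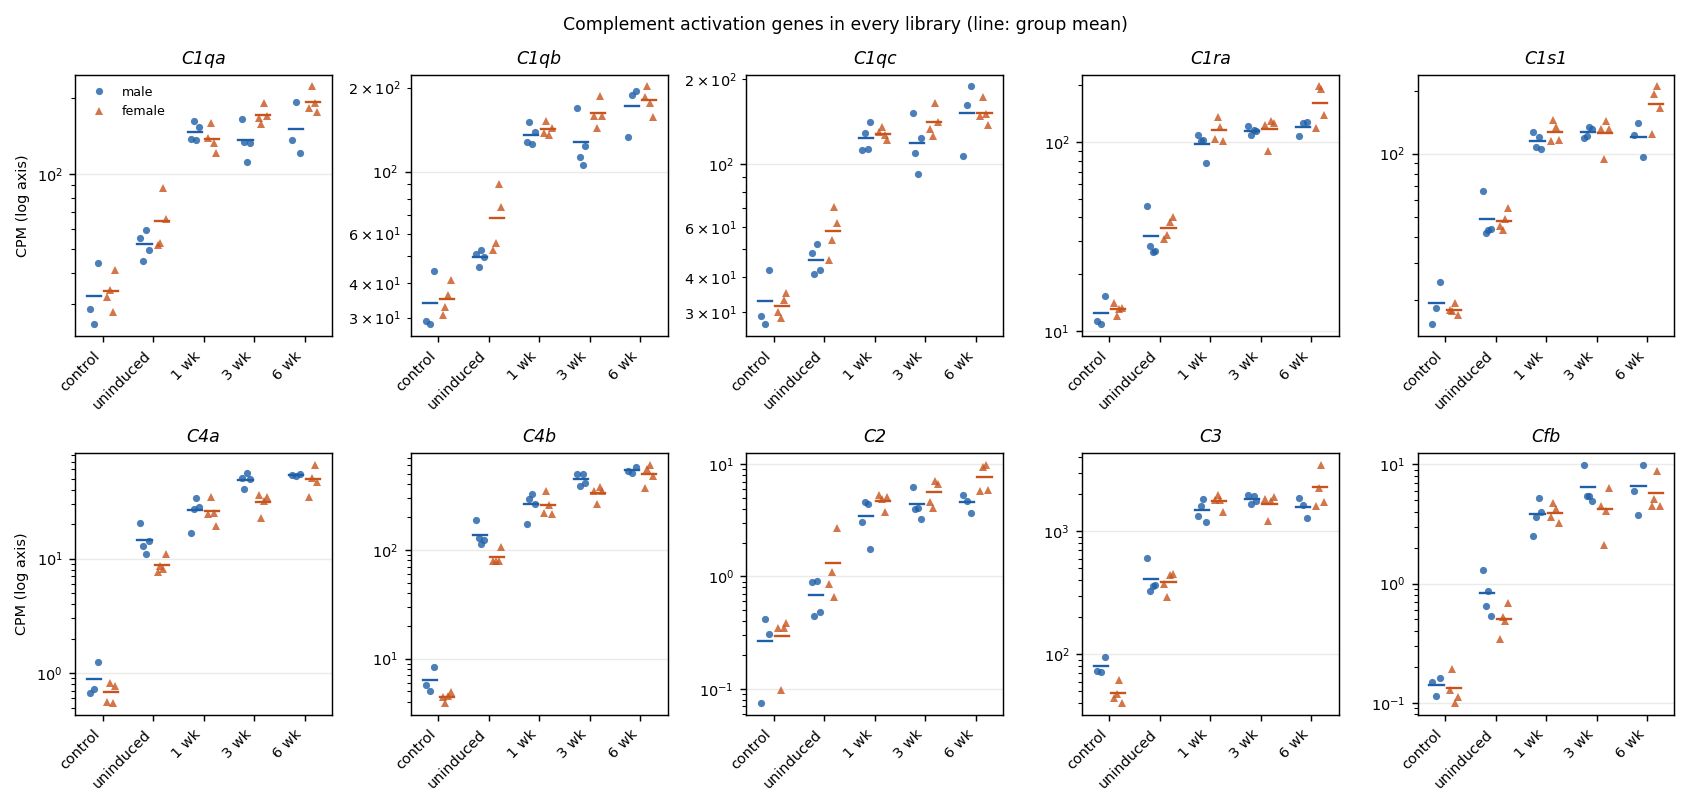
CPM of each of the 10 complement genes in every library, on a log axis that starts at a different level in each panel, for males (circles) and females (triangles), with the group mean as a line. Every induced library lies above every control library of its sex, and the uninduced libraries overlap controls only for C1qc in males and induced libraries only for C4a and C4b in males at 1 week. The share of all genes that separate in this way was not counted.

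**Figure D2:**
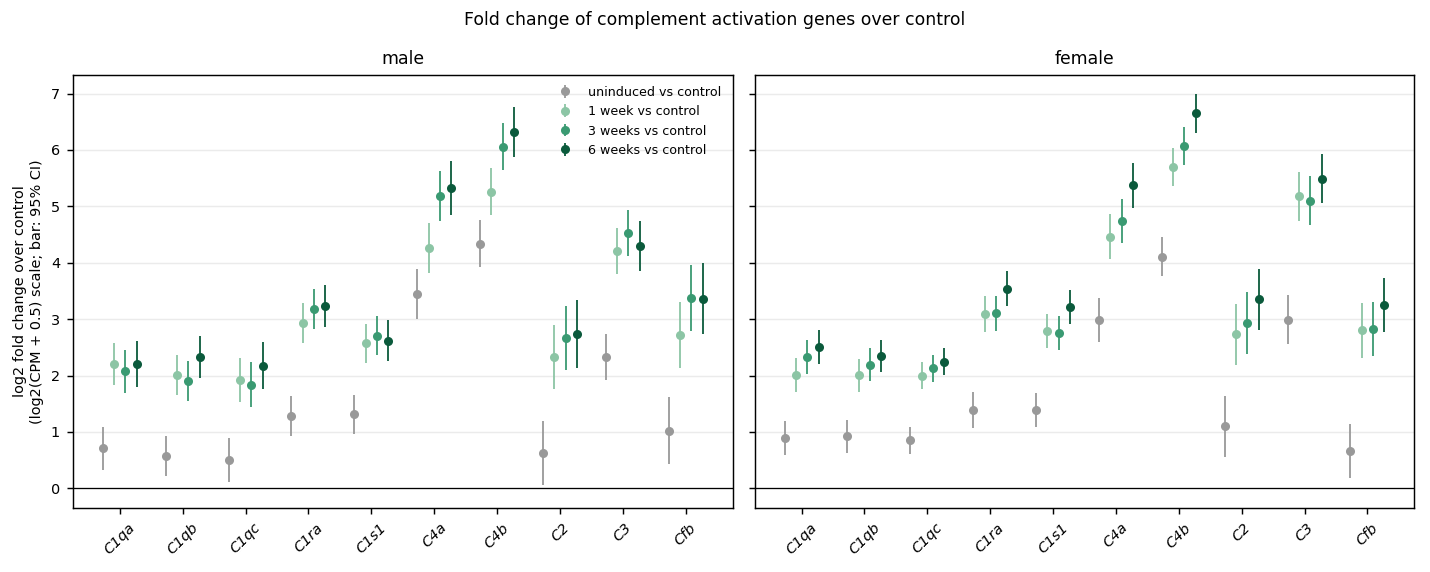
Log2 fold change over control on the log2(CPM + 0.5) scale for the uninduced group and for 1, 3 and 6 weeks, males left and females right, with bars for 95% confidence intervals (limma). C4b shows the largest change of the 10 genes in each of the 8 comparisons, reaching 6.32 in males and 6.65 in females at 6 weeks.

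C1q is the recognition molecule of the classical pathway, built from the products of C1qa, C1qb and C1qc. In males, C1qa was at 28.8, 24.96 and 43.8 CPM in the controls and at 55.4, 44.7, 59.4 and 49.4 CPM in the uninduced hearts. It was at 137, 162, 137 and 154 CPM at 1 week, 165, 134, 112 and 133 at 3 weeks and 136, 194 and 121 at 6 weeks. The induced groups overlapped one another and lay clear of the uninduced and control hearts. The change over control was 2.20 ± 0.18 (log2, ± SE) at 1 week, 2.07 ± 0.18 at 3 weeks and 2.20 ± 0.19 at 6 weeks (adjusted p 2.56e-08, 5.72e-08 and 5.53e-08). In females, C1qa was at 32.3, 34.3, 28.1 and 41.2 CPM in the controls and at 52.1, 52.7, 87.6 and 66.0 in the uninduced hearts. It was at 139, 159.8, 132 and 121 CPM at 1 week, 166, 158, 192 and 170.1 at 3 weeks and 183, 223, 192 and 176 at 6 weeks. All 12 induced female hearts were thus above the uninduced ones, and the changes over control were 2.01 ± 0.14, 2.33 ± 0.14 and 2.50 ± 0.14 (adjusted p 1.51e-09, 1.16e-10 and 3.04e-11).

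The other chains moved by much the same amount as C1qa. C1qb rose by 2.01, 1.91 and 2.33 in males and by 2.00, 2.19 and 2.34 in females at 1, 3 and 6 weeks. C1qc rose by 1.92, 1.84 and 2.18 in males and by 2.00, 2.13 and 2.24 in females. The ratio of C1qa to C1qb CPM lay between 0.776 and 1.19 in all grouped libraries but one. The exception was replicate 4 of the male 6-week hearts, at 0.624, and this library also had the lowest ratio of C1s1 to C1ra (0.756).

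Macrophage markers moved with the C1q chains. Of 12 listed macrophage markers, 9, 10 and 9 were higher than control at 1, 3 and 6 weeks in males and 11 at each week in females, and none was lower. Of all genes tested, 18.9%, 13.2% and 16.2% were called higher in males at these weeks and 15.3%, 16.8% and 21.7% in females. The summed level of the markers was 105.9 to 196 CPM in male controls and 299 to 501 at 6 weeks, and 108 to 137 and 387 to 489 in females. None of the markers was at 0 throughout a group. The log2 ratio of summed C1q chains to summed markers was -0.55 ± 0.26 (SD, n = 3) in male controls, -0.35 ± 0.17 (n = 4) in uninduced and 0.30 ± 0.18 (n = 4), -0.05 ± 0.34 (n = 4) and 0.30 ± 0.17 (n = 3) at 1, 3 and 6 weeks. In females it was -0.27 ± 0.19, -0.10 ± 0.17, -0.01 ± 0.07, 0.33 ± 0.21 and 0.35 ± 0.23 (n = 4 each). The ratio was higher at 6 weeks than in controls in every library of both sexes, while the male 3-week and the female 1-week libraries overlapped their controls. The part of the macrophage markers in the C1q values was not tested.

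**Figure D3:**
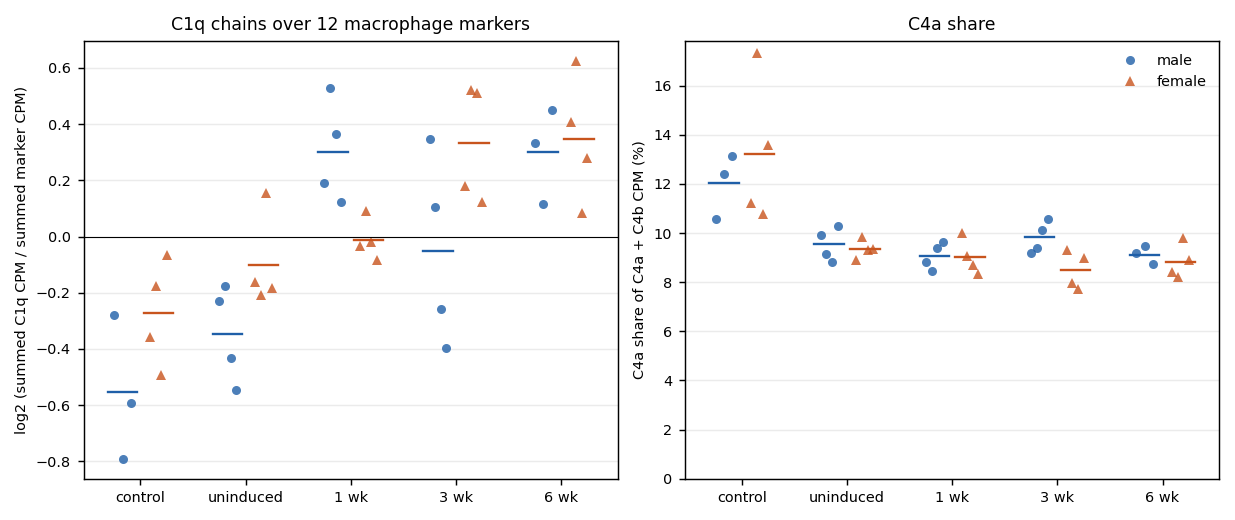
Left, log2 ratio of the summed CPM of C1qa, C1qb and C1qc to that of 12 macrophage markers, and right, C4a as a percentage of C4a plus C4b CPM, in every library of males (circles) and females (triangles) with the group mean as a line. The 6-week libraries lie above the controls on the left, and the share of C4a is 12.05% ± 1.32 in male controls against 9.13% ± 0.374 at 6 weeks on the right. Uninduced males stand at 9.54% ± 0.663, near the 6-week males, and the control shares rest on few reads of C4a.

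C1ra and C1s1 encode the C1r and C1s proteases that C1q activates. C1ra was at 11.2, 10.8 and 15.4 CPM in male controls and at 45.9, 28.1, 26.2 and 26.6 in uninduced hearts. It was at 109, 102, 103 and 77.4 CPM at 1 week, 122, 109, 116 and 115 at 3 weeks and 108, 126 and 128 at 6 weeks. Replicate 1 of the uninduced males stood above the other 3, and induced and uninduced hearts did not overlap. The change over control was 2.93 ± 0.17, 3.17 ± 0.17 and 3.23 ± 0.18 at 1, 3 and 6 weeks (adjusted p 2.71e-10, 7.16e-11 and 1.56e-10). In females C1ra was at 14.1, 12.001, 13.1 and 13.3 CPM in controls and 30.6, 32.2, 37.8 and 40.2 in uninduced hearts. It was at 104, 136, 121 and 102 CPM at 1 week, 123, 89.8, 130.03 and 126 at 3 weeks and 118, 198, 190.5 and 139 at 6 weeks. The female changes of 3.09 ± 0.15, 3.10 ± 0.15 and 3.54 ± 0.15 (adjusted p 7.98e-12, 4.60e-12 and 5.58e-13) were larger in value than those of the C1q chains. C1s1 rose by 2.57, 2.71 and 2.62 in males and by 2.79, 2.75 and 3.21 in females. The ratio of C1s1 to C1ra lay between 1.35 and 1.69 in male controls and between 0.970 and 1.16 at 3 weeks. In females it lay between 1.27 and 1.48 in controls and between 1.04 and 1.11 at 3 weeks, with no overlap in either sex and no test made. At 1 week the highest male ratio (1.3525) lay just under the lowest male control (1.3533). Uninduced hearts lay between 1.44 and 1.65 in males and between 1.28 and 1.47 in females, near the controls. Both genes share stretches with their copies, so the ratio may depend on how such reads were counted.

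C4, cleaved by C1s, supplies one of the parts of the classical convertase, and C4b showed the largest change of the 10 genes. C4b was at 5.70, 5.07 and 8.29 CPM in male controls and at 187, 127, 112 and 125 in uninduced hearts. It was at 172, 293, 324 and 264 CPM at 1 week, 496, 389, 499 and 415 at 3 weeks and 530.2, 508 and 577 at 6 weeks. The 1-week, 3-week and 6-week males did not overlap one another and followed that order, and replicate 1 at 1 week lay below the highest uninduced male. The mean at 6 weeks was 84.7 times that of controls, with a log2 change of 6.32 ± 0.21 (adjusted p 1.09e-13), after 5.26 ± 0.20 at 1 week and 6.06 ± 0.20 at 3 weeks (adjusted p 1.02e-12 and 6.91e-14). In females C4b was at 4.43, 3.92, 4.55 and 4.93 CPM in controls and 78.4, 78.4, 79.5 and 106.1 in uninduced hearts. It was at 219.5, 350.0, 259.7 and 213 CPM at 1 week, 348, 262, 379 and 352 at 3 weeks and 372, 560.0, 607 and 475 at 6 weeks. The female mean at 6 weeks was 113 times that of controls, with log2 changes of 5.69 ± 0.16, 6.07 ± 0.16 and 6.65 ± 0.16 at 1, 3 and 6 weeks (adjusted p 1.36e-15, 3.78e-16 and 8.34e-17).

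C4a, the copy known in mice as sex-limited protein, ranged from 0.675 to 1.25 CPM in male and 0.550 to 0.823 in female controls to 53.2 to 55.2 and 34.3 to 66.0 at 6 weeks. Its log2 change at 6 weeks was 5.32 ± 0.23 in males and 5.37 ± 0.19 in females (adjusted p 2.74e-12 and 2.92e-14). C4a made up 12.05% ± 1.32 (SD, n = 3) of the CPM of C4a plus C4b in male controls and 13.2% ± 3.01 (SD, n = 4) in female controls, against 9.13% ± 0.374 (n = 3) and 8.84% ± 0.706 (n = 4) at 6 weeks. Males had mean shares of 9.54%, 9.07% and 9.83% in uninduced, 1-week and 3-week hearts (n = 4 each). In females these were 9.36%, 9.03% and 8.50% (n = 4 each), so in both sexes the uninduced hearts were near the induced ones. The control share rests on 11 to 77 reads of C4a per library, and because the copies share sequence the split between them is uncertain. With both copies summed before the test, the combined gene and the other 8 were all called higher at each week in both sexes.

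C2 encodes the protease that pairs with cleaved C4. It was scarce, with 2, 11 and 19 reads in the male and 8, 2, 7 and 7 in the female control libraries. In CPM these were 0.0750, 0.417 and 0.309 in males and 0.344, 0.0968, 0.350 and 0.388 in females. At 6 weeks C2 was at 5.37, 4.66 and 3.68 CPM in males and 5.75, 9.41, 9.90 and 5.92 in females, clear of the controls. The log2 change over control was 2.33 ± 0.27, 2.67 ± 0.27 and 2.74 ± 0.29 in males and 2.73 ± 0.26, 2.93 ± 0.26 and 3.35 ± 0.26 in females at 1, 3 and 6 weeks (adjusted p at 6 weeks 6.97e-07 and 2.55e-09). The offset of 0.5 shrinks such low values, and on the recovered reads edgeR gave 4.04 in males and 4.70 in females at 6 weeks (adjusted p 1.59e-06 and 2.25e-08).

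C3 encodes the component on which all complement pathways converge. It was at 72.8, 71.7 and 94.8 CPM in male controls and 605, 325, 357 and 364 in uninduced hearts. It was at 1329, 1613, 1815 and 1189 CPM at 1 week, 1979, 1662, 1953 and 1752 at 3 weeks and 1852, 1626 and 1276 at 6 weeks. The induced groups overlapped one another, and all lay above the uninduced hearts. The log2 change over control was 4.204 ± 0.20, 4.52 ± 0.20 and 4.30 ± 0.21 (adjusted p 1.10e-11, 2.50e-12 and 2.06e-11). In females C3 was at 43.7, 47.6, 61.8 and 40.3 CPM in controls and 374, 293, 439.9 and 448 in uninduced hearts. It was at 1814, 1971, 1805 and 1429 CPM at 1 week, 1821, 1208, 1766 and 1913 at 3 weeks and 1611, 2269, 3479.9 and 1733 at 6 weeks. Replicate 3 at 6 weeks was the highest, and the changes were 5.18 ± 0.21, 5.10 ± 0.21 and 5.49 ± 0.21 (adjusted p 4.41e-13, 3.60e-13 and 8.42e-14).

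Cfb encodes factor B, the protease of the alternative convertase, and was read from few counts in controls. It was at 0.150, 0.114 and 0.163 CPM in male controls (4, 3 and 10 reads) and 1.29, 0.652, 0.860 and 0.532 in uninduced hearts. It was at 2.51, 3.60, 5.19 and 4.01 CPM at 1 week, 9.87, 5.39, 5.39 and 4.97 at 3 weeks and 5.97, 3.78 and 9.93 at 6 weeks. The induced males lay above the uninduced ones, with replicate 1 at 3 weeks and replicate 4 at 6 weeks highest. The log2 change over control was 2.72 ± 0.28, 3.375 ± 0.28 and 3.36 ± 0.30 (adjusted p 6.21e-07, 3.41e-08 and 7.65e-08). In females Cfb was at 0.129, 0.194, 0.1001 and 0.111 CPM in controls (3, 4, 2 and 2 reads) and 0.342, 0.523, 0.485 and 0.688 in uninduced hearts. It was at 3.63, 4.72, 4.22 and 3.21 CPM at 1 week, 4.501, 2.09, 4.07 and 6.32 at 3 weeks and 4.52, 5.16, 8.75 and 4.47 at 6 weeks. The female changes were 2.80 ± 0.23, 2.83 ± 0.23 and 3.25 ± 0.23 (adjusted p 1.30e-08, 8.62e-09 and 8.09e-10). The recovered reads gave 5.45 in males and 5.36 in females at 6 weeks by edgeR (adjusted p 1.00e-07 and 2.26e-09).

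Levels were compared between genes as CPM per kilobase of annotated exon. In male controls C1qa stood at 20.2 ± 6.18 CPM per kb (SD, n = 3), C3 at 15.4 ± 2.51, C1qc at 11.5 ± 2.89, C1s1 at 5.54 ± 1.32, C1qb at 5.42 ± 1.41 and C1ra at 3.92 ± 0.787, whereas C4b stood at 1.05 ± 0.281 and C4a, C2 and Cfb at 0.142 ± 0.0519, 0.0619 ± 0.0405 and 0.0416 ± 0.00746. The values of C1qa and C3 lay within their SDs of each other, as did those of C1s1 and C1qb. At 6 weeks the order was led by C3 at 306 ± 56.0 CPM per kb (n = 3), with C1qa at 93.5 ± 24.0 and C4b at 88.8 ± 5.76, which lay within their SDs of each other. C2 and Cfb stayed lowest at 1.06 ± 0.196 and 1.92 ± 0.912. Both levels are uncertain, as 56.7% of the stretches of C2 and 64.9% of those of Cfb are shared with Gm20547. How such reads were counted is not given, and a loss of them would lower both levels. In females (n = 4) C1qa led the controls at 21.1 ± 3.41 with C3 at 9.33 ± 1.83 and C4b at 0.736 ± 0.0690, and at 6 weeks C3 stood at 439 ± 165, C1qa at 120.3 ± 12.9 and C4b at 83.1 ± 17.03. C1qb is annotated with 6246 exonic bases over 10 transcripts, so its level per length depends on which of them the heart uses. This also holds for other genes. C1qa has 1610 annotated exonic bases but 1087 in the transcript searched for shared stretches, and C1qc has 2860 but 1852. The order of close levels, such as C1qa and C3 in male controls or C1qa and C4b at 6 weeks, therefore depends on the length used.

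**Figure D4:**
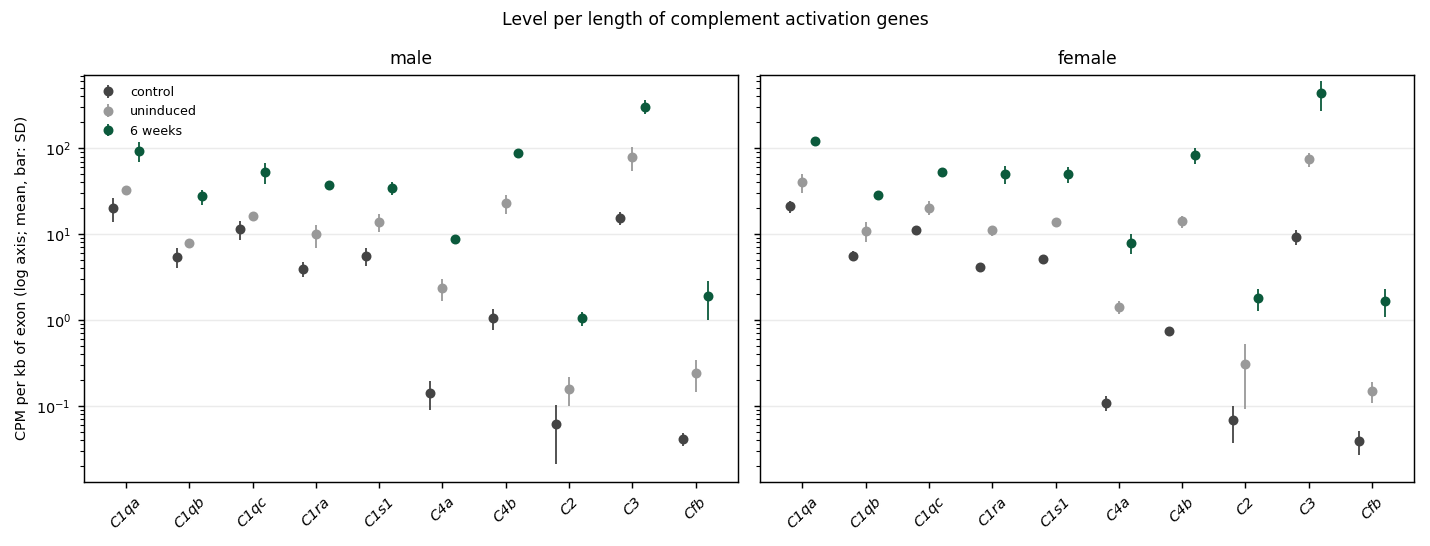
Mean CPM per kilobase of annotated exon (log axis, bars for SD) in control, uninduced and 6-week hearts, males left and females right. C4b moves from 1.05 ± 0.281 in male controls to 88.8 ± 5.76 at 6 weeks, beside C1qa by this measure of length. C2 and Cfb stay lowest, with counts that are uncertain because they share stretches with Gm20547.

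Uninduced hearts, with Il11 above control but below induced hearts, already differed from controls in several of the genes. In males 5 of the 10 were called higher, C1ra, C1s1, C3, C4a and C4b, where 0.561% of all genes tested were called higher. The log2 changes were 4.33 ± 0.20 for C4b, 3.44 ± 0.21 for C4a, 2.33 ± 0.20 for C3, 1.31 ± 0.17 for C1s1 and 1.29 ± 0.17 for C1ra (adjusted p 3.79e-11, 5.97e-09, 4.55e-07, 1.30e-04 and 2.27e-04). The C1q chains, C2 and Cfb missed the threshold in males, with changes of 0.71 ± 0.18 for C1qa (95% interval 0.33 to 1.08, adjusted p 0.0942), 0.63 ± 0.27 for C2 (adjusted p 0.416) and 1.02 ± 0.28 for Cfb (adjusted p 0.135). C1qa was called in males by DESeq2 and by limma without replicate 4. In females 9 of the 10 were called higher, all but Cfb, where 2.41% of all genes tested were. The female changes were 4.11 ± 0.16 for C4b, 2.99 ± 0.21 for C3, 2.98 ± 0.19 for C4a, 1.38 ± 0.15 for C1ra and 0.90 ± 0.14 for C1qa (adjusted p 1.71e-12, 1.56e-08, 3.66e-09, 1.41e-05 and 8.12e-04). Cfb was at 0.66 ± 0.23 in females (adjusted p 0.15). On the recovered reads edgeR called Cfb higher in uninduced males (2.44, adjusted p 0.032) and females (1.91, adjusted p 0.0475). C2 in females (adjusted p 0.0214) lost its call without replicate 1, 2 or 4, with a pseudocount of 2 and in the fit of the 2 groups alone. None of the 12 macrophage markers was called in uninduced males, and 7 were called higher in uninduced females.

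The uninduced mean of C4b was 25.6% of the 6-week mean in males and 16.99% in females, that of C3 26.1% and 17.1%, and that of Cfb 12.7% and 8.90%. For Il11 the same shares were 3.43% and 5.80%. Against the uninduced hearts, all 10 genes were called higher at each week in both sexes, where 12.1%, 10.6% and 13% of all genes were called higher in males and 8.32%, 10.6% and 13.7% in females. At 1 week the smallest of these changes in males were those of C4a at 0.82 ± 0.20 and C4b at 0.92 ± 0.18 (adjusted p 0.00615 and 0.00154), while C3 was at 1.87 ± 0.18 (adjusted p 6.26e-07). On the recovered reads, without the offset that shrinks low genes, edgeR gave 2.40 for C2 and 2.23 for Cfb against 1.85 for C3 (adjusted p 1.03e-04, 1.50e-04 and 1.93e-06). C4a in males lost this call without replicate 2 or without replicate 3. At 6 weeks against uninduced, C4b was at 1.99 ± 0.20 in males and 2.54 ± 0.16 in females, C3 at 1.97 ± 0.20 and 2.50 ± 0.21, and C1qa at 1.497 ± 0.18 and 1.60 ± 0.14 (adjusted p of at most 6.42e-06). These comparisons share the induced libraries with those against control.

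Between the weeks, only C4a and C4b moved past the threshold, and only from 1 to 6 weeks. C4b was higher at 6 weeks than at 1 week by 1.07 ± 0.20 in males and 0.95 ± 0.16 in females (adjusted p 0.0348 and 0.00319), and C4a by 1.07 ± 0.21 and 0.91 ± 0.19 (adjusted p 0.0453 and 0.0169), where 0.13% of all genes were called higher in males and 0.891% in females. Both male calls were lost without any 1 of replicates 1 to 4 and in the fit of the 2 groups alone, and both female calls were lost without replicate 3 or replicate 4. The other 8 genes missed the threshold, with C3 at 0.09 ± 0.20 in males (95% interval -0.32 to 0.50) and 0.31 ± 0.21 in females (-0.12 to 0.75), and C1qa at 0.00 ± 0.18 (-0.37 to 0.38) and 0.49 ± 0.14 (0.19 to 0.78). At an unadjusted p under 0.05 there were 3 of the 10 in males and 8 in females from 1 to 6 weeks, C4a and C4b included. The share of all genes at an unadjusted p under 0.05 was not counted for any pair of weeks. The shares of all genes given here are at adjusted p and cannot be set against such counts. From 1 to 3 weeks limma called 0 of the 10 in either sex, where 0.0118% and 0.165% of all genes were called higher. Unadjusted p was under 0.05 for 3 in males and 2 in females, edgeR called 0 in both sexes, and DESeq2 called 2 in males (C4a and C4b) and 0 in females. The shares of all genes that edgeR and DESeq2 called are not given here, and those of limma cannot be set against their counts. From 3 to 6 weeks limma, edgeR and DESeq2 called 0 in either sex, with 1 male and 4 female genes at an unadjusted p under 0.05. For these weeks limma called 0% of all genes higher in either sex. C4b in females stood at 0.58 ± 0.16 there (adjusted p 0.173).

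Of 47 other complement genes in 4 lists, 35 were in the tables and tested in each sex. At 6 weeks males had 24 of them above control and 2 below it past the threshold, and females had 25 above and 5 below. Of all genes tested, 16.2% were called higher and 10.9% lower in males at 6 weeks, and 21.7% and 21% in females, so the lower counts were no larger a share than over all genes. Among initiators and members of the lectin and alternative pathways 7 of 9 were higher in each sex. These included Cfp, the properdin gene that stabilises the alternative convertase, at 2.04 ± 0.21 in males and 1.84 ± 0.13 in females (adjusted p 4.79e-07 and 7.36e-10). C1rb and C1s2, the copies of C1ra and C1s1, stood at 3.27 ± 0.20 and 2.17 ± 0.22 in males and 3.381 ± 0.16 and 2.84 ± 0.20 in females (adjusted p of at most 4.72e-07), with shared sequence as above. Among regulators 6 of 13 rose and 1 (Sez6l2) fell in male hearts, and 7 rose and 3 (Cd46, Sez6l2 and Vtn) fell in female hearts, and those falling were near the share over all genes. Cfi, the gene of factor I that cleaves activated C3 and C4, was at 0.0988 ± 0.0606 CPM (SD, n = 3) in male controls and 37.8 ± 12.7 (n = 3) at 6 weeks, and at 0.0444 ± 0.0610 and 54.5 ± 8.59 (n = 4) in females. Its log2 change was 5.94 ± 0.37 in males and 6.65 ± 0.18 in females (adjusted p 5.15e-10 and 3.27e-16), a size that depends on the offset of 0.5 because the controls were near 0. Serping1, the C1 inhibitor, stood at 3.04 ± 0.23 and 2.80 ± 0.13, and Clu, clusterin, at 3.06 ± 0.33 and 3.26 ± 0.26 (adjusted p of at most 1.14e-06).

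Among receptors 9 of 10 were higher and 1, Cd93, lower in both sexes. The integrin chains of complement receptors stood at 2.05 ± 0.24 and 2.67 ± 0.18 for Itgax, 1.65 ± 0.28 and 2.01 ± 0.17 for Itgam and 1.37 ± 0.20 and 1.93 ± 0.16 for Itgb2 in males and females (adjusted p of at most 1.94e-04). Of 7 terminal components 3 were listed, of which C6 and C7 were higher in both sexes, C6 by 3.97 ± 0.35 and 3.84 ± 0.22 and C7 by 2.94 ± 0.26 and 2.80 ± 0.24 (adjusted p of at most 5.53e-08), and C8g was lower in females. In uninduced hearts 4 of the 35 were higher in males (C1rb, C1s2, C7 and Serping1) and 12 in females, where 0.561% and 2.41% of all genes were called higher, and none was lower.

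Markers of other cell types moved with the 10 genes to different degrees, and their part in the results was not tested. The counts stand beside 16.2% of all genes called higher and 10.9% lower at 6 weeks in males and 21.7% and 21% in females, which counts of 1 of 4 or 2 of 8 do not set apart. At 6 weeks over control 6 of 8 fibroblast markers were higher and 1, Gsn, lower in both sexes, with a summed level of 1368 to 1619 CPM in male controls and 2988 to 3435 at 6 weeks (1839.7 to 2123 and 3586 to 6224 in females). Of 6 endothelial markers 4 were lower in both sexes (Cdh5, Fabp4, Kdr and Tie1), and of 8 cardiomyocyte markers 2 were lower in males (Ryr2 and Ttn) and 4 in females (Myl2, Pln, Ryr2 and Ttn). Of 5 mesothelial markers none was called in males and 4 were higher in females (Krt19, Msln, Upk1b and Upk3b). Hepatocyte markers matter here because liver is the main source of plasma complement. Of 6 tested in males and 8 in females, 2 were higher in each sex, Ahsg and Trf, with a summed level of 26.8 to 36.9 CPM in male controls and 147 to 199 at 6 weeks (28.02 to 34.1 and 188 to 255 in females). Alb, albumin, an abundant liver transcript, ranged from 0.570 to 1.39 CPM in male controls and from 0.777 to 32.6 at 6 weeks, and from 1.64 to 3.19 and 1.23 to 61.7 in females, and was not called in either sex. Of 4 neutrophil markers 2 were higher in both sexes (Csf3r and Mmp8). Of the T cell markers 1 of 4 was higher in males (Cd4) and 4 of 6 in females (Cd3e, Cd3g, Cd4 and Trac), and of the B and plasma cell markers 3 of 4 in males (Cd79b, Ighm and Jchain) and 3 of 5 in females (Cd79b, Ighm and Jchain). Of 5 erythroid markers none was called at 6 weeks, and all 5 were higher in females at 1 week, where 15.3% of all genes tested were called higher. The 5 adipocyte markers were not analysed here.

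Outside the 10 genes, the most similar patterns were found by Pearson's r of log2(CPM + 0.5) over all 18 male and 20 female grouped libraries among 16616 genes, a description in which the libraries share the 5 groups. For C1qa these were Ctss (0.99 in males and 0.98 in females), Lyz2 (0.99 in males and 0.98 in females) and Ctsz (0.98 in males and 0.99 in females), and for C1ra C1rb (0.99 in males and 1.00 in females), Col14a1 (0.99 in males and 0.99 in females) and Scara3 (0.98 in males and 0.98 in females). For C3 they were Serpina3n (0.99 in males and 0.99 in females), Nfasc (0.99 in males and 0.99 in females) and Bmper (0.98 in males and 0.98 in females), for C4b Lgi2 (0.99 in males and 0.98 in females), Serpina3n (0.96 in males and 0.98 in females) and Pacsin1 (0.96 in males and 0.98 in females) and for Cfb Igfbp4 (0.97 in males and 0.97 in females), Slit3 (0.97 in males and 0.99 in females) and Nxpe5 (0.96 in males and 0.97 in females). Ctss, Ctsz and Lyz2 encode lysosomal proteases and a lysozyme of macrophages, Col14a1 encodes a fibrillar-associated collagen, and Serpina3n encodes a secreted protease inhibitor of the acute phase. Among all genes, the one with the highest r to C3 was C1s1 in both sexes, and the one with the highest r to C4b was C4a.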

How the data were processed

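PolyA RNA of mouse hearts was sequenced with a directional kit in paired reads of 60 bases, aligned with STAR to GRCm39 (Ensembl 106) and counted with featureCounts. The authors deposited 1 table per sex, whose values are a signal, CPM on edgeR's effective library size. Whole reads were recovered from these deposited values (100% within 0.001 of a whole number). Groups came from the sample labels, and 2 male libraries with conflicting labels were left out.

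Within each sex, limma (version 3.58.1, trend) was fitted to log2(CPM + 0.5) over all 5 groups, keeping genes that reached 0.5 CPM in 3 or more libraries (16931 male and 16956 female genes). Benjamini-Hochberg adjustment covered all of them, and adjusted p under 0.05 was a call. Fold changes are on this scale, which understates changes of low genes. Each library is labelled with a heart number of its own, and hearts were taken as the replicates. edgeR (4.0.16) and DESeq2 (1.42.0) were run on the recovered reads, and other offsets, filters, scalings, fits and left-out replicates were tried. In data simulated for 6 weeks against control, 74% of 2-fold and 98% of 4-fold changes were recovered among 16931 male genes, and 82% and 99% among 16956 female genes. There were 3 false calls in males and 10 in females. The simulation changed 200 genes and gave every gene the same relative spread between libraries. Genes that vary more between hearts may be recovered less often than these shares. No 2 libraries of a group agreed within sampling noise (lowest chi-square per gene 12.6 over 24 male pairs and 7.05 over 30 female pairs).

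The 10 genes, the lists and the markers were chosen with earlier results of these data known. Named were the 10 genes, up to 3 genes of each other complement list with the largest change at 6 weeks among those called in both sexes, and the 3 nearest genes in pattern to C1qa, C1ra, C3, C4b and Cfb. Genes named for small counts of other lists were chosen after their values were seen. Positions and transcripts came from GRCm39 with GENCODE vM39, and promoters from RefSeq.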

Additional observations from a re-analysis of the deposited data

Results flagged for a closer look

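In the 8 groups of 4 libraries each of the 10 genes was tested for a library far from the others, which makes 80 tests on the same libraries. Of these, 7 were marked, where chance marks about 1 in 20, and 3 of the 7 were 1 library. Replicate 1 of the uninduced males stood above the other 3 for C1ra (45.9 CPM against 26.2 to 28.1), C1s1 (66.1 against 41.6 to 43.4) and C3 (605 against 325 to 364). Replicate 1 of the males at 3 weeks had 9.87 CPM of Cfb against 4.97 to 5.39 in the others, and replicate 3 of the females at 6 weeks had 8.75 against 4.47 to 5.16. C4b was at 106.1 CPM in replicate 4 of the uninduced females against 78.4 to 79.5. C2 was at 0.0968 CPM in replicate 2 of the female controls against 0.344 to 0.388, which is 2 reads.

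The 2 male libraries left out of the groups held signal above the highest male control. The library titled 6 weeks and described as control had 15.5 CPM of C1ra, 0.955 of C2, 160.3 of C3, 0.318 of Cfb and 0.597 of Il11, where the highest controls were at 15.4, 0.417, 94.8, 0.163 and 0.147. Its other 6 complement genes were not above the highest control. The library titled control and described as 6 weeks was above the highest control for all 10 genes, with C1qa at 85.8 CPM, C1qb at 133, C1qc at 96.1, C1ra at 105, C1s1 at 133, C4a at 56.6, C4b at 515, C2 at 5.05, C3 at 1397, Cfb at 7.59 and Il11 at 511.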

How the results depend on the processing

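With the 2 conflicting male libraries placed by their titles, the number of the 10 genes called in males was 0 for 3 weeks and for 6 weeks over control, 0 for uninduced over control, 1 for 1 week over uninduced, 0 for 3 and for 6 weeks over uninduced and 0 for 6 weeks over 1 week. The changes of C2 in uninduced males (-0.094) and of C4b (-0.46) and C4a (-0.34) from 1 to 6 weeks then turned. Placed by descriptions, no count moved by over 1.5 times. For neither placement is the share of all genes called given here. From 1 to 6 weeks, 2 genes were called in each sex. In males this became 1 with a pseudocount of 0.1, 1 with edgeR, 1 with C4a and C4b summed (fewer rows by construction), 0 with equal totals, 0 with the 2 groups alone, 0 with the replicate block and 0 without replicate 4 at 6 weeks (chosen after seeing the data), and it ranged from 0 to 0 without 1 replicate number. In females it became 1 with the 2 groups alone, 1 with C4a and C4b summed and 0 with a minimum log2 change of 1, and ranged from 0 to 2 without 1 replicate number. From 1 to 3 weeks in males DESeq2 called 2 against 0, and the share of all genes that DESeq2 called is not given here. Where not stated, the cause was not tested. The replicate block changed no other call of the 10 genes. Same-numbered libraries correlated by 0.0132 on average in males (-0.134 to 0.256) and 0.0255 in females (-0.342 to 0.563), so the numbers were not taken to pair them.

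Scaling to equal totals moved the median log2 change of all genes at 6 weeks over control from -0.01 to 0.16 in males and from -0.02 to 0.33 in females, and the higher and lower calls from 2742 and 1838 to 3606 and 595 in males and from 3678 and 3567 to 8356 and 1045 in females. With a minimum log2 change of 1 they were 1181 and 258 in males and 1334 and 652 in females. All 10 genes stayed higher at each week over control under every alternative run except placement by titles and, by construction, the summed C4 copies. Of the values of single genes, 2757 kept direction and side of the threshold, 104 lost the call, 9 gained it and 3 turned. Few reads of C2 and Cfb limit their values in controls. Even the deepest library, male control replicate 4 with 65333832 reads, held 19 reads of C2 and 10 of Cfb.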

Other observations

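The ratio of C1qa to C1qb CPM was 0.646 in the male library titled control and described as 6 weeks and 0.624 in replicate 4 of the male 6-week hearts, against 0.776 to 1.19 in all other libraries. The ratio of C1s1 to C1ra in these libraries was 1.26 and 0.756.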
